A study of Homo sapiens with 16 samples.

Results

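Peroxisome proliferator-activated receptors (PPARs) are nuclear receptors that fatty acids and their derivatives activate, and they bind DNA as heterodimers with retinoid X receptors (RXRs). Coactivators and corepressors decide whether a bound pair turns a gene on or off. PPARA is best known for driving fatty acid oxidation, PPARG for the adipocyte programme, and PPARD, the most widely expressed of the family, for oxidation and lipid handling in many tissues. The genes described here are these 3 receptors and 5 of their known targets. ANGPTL4 encodes a secreted inhibitor of lipoprotein lipase that is induced by fatty acids through PPARs, and also by hypoxia and glucocorticoids. PLIN2 coats lipid droplets, CPT1A transfers long-chain fatty acids to carnitine for import into mitochondria, ACADVL catalyses the opening step of mitochondrial oxidation of very-long-chain fatty acids, and PDK4 inhibits the pyruvate dehydrogenase complex. The 8 genes were taken by symbol from 26485 genes in the count table. ANGPTL4 was chosen on its rise after siGGGGGC in PC3 cells, so its values in that comparison are a description and carry no test. The other members were chosen as receptors and targets of the pathway.

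The counts came from 16 bulk RNA-seq libraries of the established human cancer cell lines PC3 (prostate) and HeyA8 (ovary), both labelled wild type. In each line, 1 library was made 24 h and 1 library 48 h after each of 4 treatments, which were mock, the non-targeting siNT1, siGGGGGC and siCAG. siGGGGGC, which appears as siMxy in the sample titles, is an siRNA whose guide strand carries GGGGGC at positions 2 to 7, the seed that pairs with GCCCCC in target RNAs. The labels give a dose of 1 nM for the siRNAs, and nothing beyond its name for siCAG. PC3 libraries held 27937092 to 29971612 counted reads and HeyA8 libraries 29128446 to 31790209. The 24 and 48 h libraries of a treatment are its 2 replicates, so every SD below includes the difference between the time points. Nothing states that the libraries came from independent experiments, so p-values measure the spread between these libraries. Levels are CPM, the read count of a gene scaled to a common library total, after normalization by edgeR's TMM method within a line unless said otherwise. A gene was called when its Benjamini-Hochberg adjusted p from edgeR's quasi-likelihood test was under 0.05. The 8 members passed the filter on low counts in PC3 cells and 7 of them in HeyA8 cells, where PLIN2 was left out. In bulk libraries fewer cells of a kind and less RNA per cell cannot be told apart.

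The labelled origins were checked against marker genes. KRT8 and KRT18, keratins of simple epithelia, were counted at 3590 reads or more in every library of both lines. The other epithelial markers were nearly absent from HeyA8 libraries, with 10 to 48 reads of EPCAM, 2 to 14 of KRT19 and 0 to 3 of CDH1. HOXB13, a transcription factor of the prostate, had 2400 to 15762 reads in PC3 and 10 to 71 in HeyA8 libraries, and TMPRSS2 had 485 to 1112 reads in PC3 and 0 in HeyA8 libraries. KLK3, another prostate gene, had 0 reads in every PC3 library. PAX8, a marker of ovarian carcinoma, had 1838 to 6680 reads in HeyA8 and 44 to 192 in PC3 libraries, while the other ovarian markers did not set HeyA8 cells apart. WT1 overlapped between the lines, with 182 to 521 reads in HeyA8 and 268 to 424 in PC3 libraries. MUC16 had at most 5 reads in HeyA8 and at most 20 in PC3 libraries, and FOLR1 had at most 1 read in HeyA8 cells. The adipocyte genes ADIPOQ and LEP were at 0 in all libraries and LPL, the enzyme that ANGPTL4 inhibits, had at most 1 read. The other adipocyte markers, PLIN1 and CIDEC, had 22 to 61 and 0 to 35 reads in PC3 libraries.

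Matches to the siGGGGGC seed were counted first in the longest annotated 3′ UTR of each member (GENCODE v44, hg38), since siRNA seeds can act through such matches. PPARD had 4 copies of GCCCCC in 2112 bases, PPARA 2, ANGPTL4 and CPT1A 1 each, and PLIN2, PDK4, PPARG and ACADVL 0. Of 17791 genes with a coding transcript, 30.4% had at least 1 copy and 3.16% had 4 or more. In the coordinates of the count table, PPARD spans chr6:35342558-35428191 and ANGPTL4 chr19:8364127-8374375 on the plus strand, and CPT1A chr11:68754620-68841931 on the minus strand. The 4 PPARD sites and the site of ANGPTL4, whose levels the results turn on, are shown 5′ to 3′ on the strand of the transcript, with the seed match in capitals. They lie at chr6:35426665-35426670, chr6:35426878-35426883, chr6:35426945-35426950 and chr6:35427104-35427109 (plus strand) for PPARD and at chr19:8374034-8374039 (plus strand) for ANGPTL4.
PPARD site 1: gactgactgcaGCCCCCtatagtcatgg
PPARD site 2: tgttgctgatgGCCCCCtgcactggccg
PPARD site 3: cctccaggtggGCCCCCacctcactgaa
PPARD site 4: gcactcccactGCCCCCctgcccagtag
ANGPTL4 site: cgactggagaaGCCCCCtttctgagtgc
The third PPARD match is followed by an A, which lengthens a seed site, and the fourth is preceded by a T. A match in the sequence is a description, and binding of the guide strand at these sites was not measured here.

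Before any siRNA, PC3 and HeyA8 cells differed in most members. In mock-treated cells 5 of 8 members were higher in PC3 cells and 0 were lower, where 25.6% of all genes tested were called higher and 19.9% lower. This comparison used all 16 libraries in 1 fit with time point within line as a term. PLIN2, left out by the filter within HeyA8 cells, entered this fit through its PC3 reads. Its place among the 5 is therefore a description and no test. PLIN2 had 3662 and 3425 reads in the PC3 mock libraries (24 and 48 h) and 5 and 3 in the HeyA8 mock libraries. Over all 8 HeyA8 libraries it never passed 7 reads, whereas the neighbouring HAUS6, RRAGA and RPS6 on chromosome 9 averaged 99.4, 38.3 and 1404 CPM there. The fitted log2 difference for PLIN2 was 9.83 (standard error, SE, 0.78), given without a test, and rests on those few HeyA8 reads. PDK4 had 299 and 304 reads in PC3 and 9 and 5 in HeyA8 mock cells, a log2 difference of 5.39 (SE 0.54). This size also rests on few HeyA8 reads, since it was 6.59 without the 24 h and 4.73 without the 48 h HeyA8 mock library. PPARG, the adipocyte receptor, had 4422 and 5322 reads in PC3 and 229 and 289 in HeyA8 mock cells, a 15.0-fold difference, and no library of one line overlapped with the other. CPT1A had 5933 and 5858 reads in PC3 and 1465 and 1173 in HeyA8 mock cells, a 3.42-fold difference. Both enzymes and the receptor PPARG thus separated the lines in every mock library. PPARD had 3950 and 2911 reads in PC3 and 1789 and 2015 in HeyA8 mock cells. It was 1.64-fold higher (log2 difference 0.71, SE 0.24, adjusted p = 0.0306), a call that was lost without any of 3 of the 4 mock libraries, with adjusted p up to 0.287. PPARA (log2 difference 1.05, adjusted p = 0.0571), ACADVL (0.27, adjusted p = 0.371) and ANGPTL4 (-0.51, adjusted p = 0.329) were not called by edgeR. DESeq2 called PPARA (adjusted p = 0.0441) together with 47.9% of all genes. An edgeR fit of the 4 mock libraries alone called PPARA (adjusted p = 1.65e-05) and ACADVL (0.0308) together with 74.9% of all genes. With 1 mock library left out, the log2 difference of PPARA ran from 0.36 to 1.39.

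**Figure D1:**
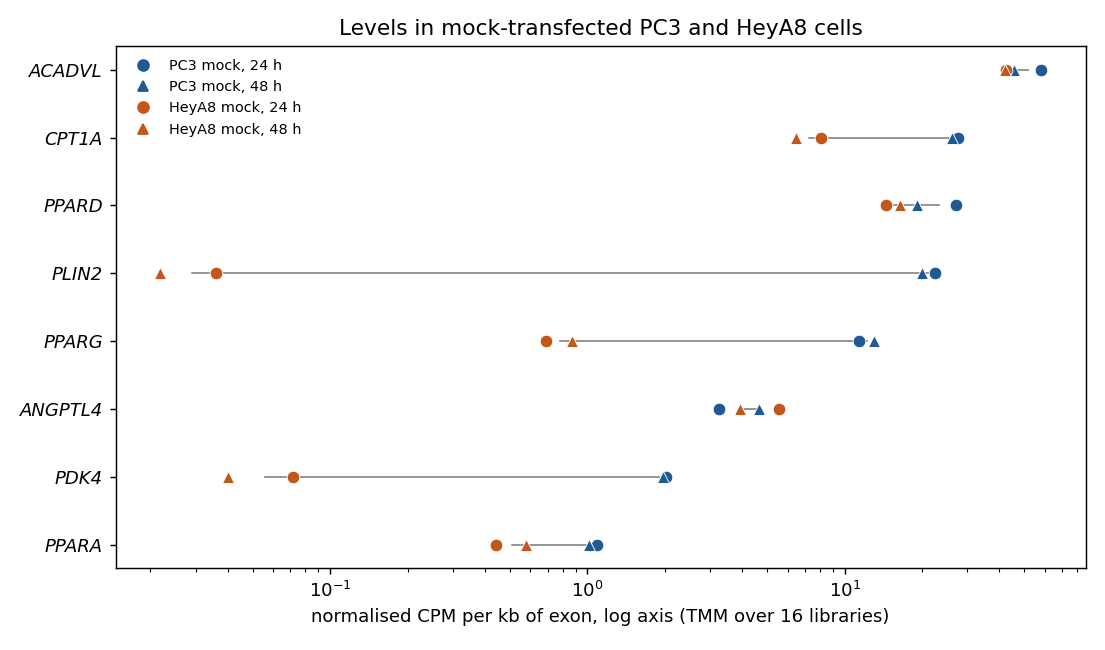
Level of each member in the 4 mock libraries, as CPM per kb of exon on a log axis, normalized over all 16 libraries, with circles for 24 h, triangles for 48 h and a line between the means of the lines. The PC3 and HeyA8 points of PLIN2, PDK4, PPARG and CPT1A lie far apart, and those of ANGPTL4 and ACADVL lie close together.

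Per kb of exon, and normalized over the 16 libraries, ACADVL was the most abundant member in mock-treated PC3 cells at 51.9 ± 9.01 CPM per kb (SD, n = 2). CPT1A at 26.9 ± 1.07, PPARD at 23.2 ± 5.66 and PLIN2 at 21.3 ± 1.66 CPM per kb followed. PPARD overlapped with both CPT1A and PLIN2 within its spread. By this measure PPARD was the highest of the receptors, above PPARG at 12.2 ± 1.22 and PPARA at 1.05 ± 0.0581 CPM per kb. ANGPTL4 stood at 3.95 ± 1.01 and PDK4 at 1.99 ± 0.0380 CPM per kb. In HeyA8 mock cells ACADVL (42.2 ± 0.113 CPM per kb) was again highest, followed by PPARD (15.5 ± 1.31), CPT1A (7.27 ± 1.13) and ANGPTL4 (4.74 ± 1.18). PPARG (0.783 ± 0.129), PPARA (0.510 ± 0.0974), PDK4 (0.0558 ± 0.0225) and PLIN2 (0.0289 ± 0.0102) were all under 1 CPM per kb there. Per kb of exon the order of the receptors was thus PPARD, PPARG and PPARA in both lines. The length used is that of all annotated exons of a gene together. Before division by it, PPARG was above PPARD in PC3 mock cells, at 146.0 ± 14.6 against 103.4 ± 25.2 CPM. The order of these receptors in PC3 cells therefore rests on the lengths used.

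The lists of the rest of the pathway differed in direction. Of 143 genes in 9 lists of PPAR partners and targets, 110 were tested, 41 were higher in mock-treated PC3 cells and 18 lower, beside the 25.6% and 19.9% of all genes given above. In the mitochondrial oxidation list 2 of 15 were higher and 3 lower. In the lipid droplet list 8 of 10 were higher and 1 lower (PLIN3, -0.62 on the log2 scale). Within HeyA8 cells only 6 genes of this list passed the filter, so the filter set the direction of part of this count. The genes called higher included PLIN4, another droplet coat protein, with 739 and 806 reads against 6 and 2. They also included DGAT2, which makes triglycerides, with 1026 and 894 reads against 19 and 11. In the list of lipolysis and fatty acid binding 5 of 12 were higher and 3 lower. FABP4 from this list, a fatty acid carrier and a classical PPARG target in adipocytes, had 1353 and 1717 reads in PC3 and 0 in HeyA8 mock cells. FBP1, an enzyme of gluconeogenesis, had 375 and 586 reads in PC3 and 0 in HeyA8 mock cells. In the peroxisomal list 7 of 13 were higher in PC3 cells and 0 lower, among them CROT, which transfers medium-chain fatty acids to carnitine in peroxisomes, with a log2 difference of 2.35. Among receptor partners 1 of 16 was higher (NRIP1, log2 difference 2.06) and 6 lower. PPRC1, a coactivator of the PGC-1 family, was the lowest of these at -1.86. In the angiopoietin list TIE1, an endothelial receptor, had 8 and 1 reads in PC3 and 7938 and 8392 in HeyA8 mock cells.

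Transfection of the non-targeting siNT1 did not lead to a call for any member. Against mock, 0 of 8 members were called in PC3 cells, where 0.231% of all genes were, and 0 of 7 in HeyA8 cells, where 0% were. At an unadjusted p under 0.05 there were 0 members in PC3 cells, beside 9.01% of all genes, and 1 in HeyA8 cells, beside 1.28%. DESeq2 called 0 members in either line, beside 1.76% of all genes in PC3 cells and 1 gene in HeyA8 cells. ANGPTL4 in HeyA8 cells was at 12.5 and 8.88 CPM in mock and at 20.9 and 14.8 CPM after siNT1 at 24 and 48 h. Its log2 difference was 0.74 (SE 0.27, unadjusted p = 0.0303, adjusted p = 1), and a fit of these 4 libraries alone called it together with 11.8% of all genes. In PC3 cells ANGPTL4 was at 9.06 and 13.1 CPM in mock and at 12.1 and 8.92 CPM after siNT1, so that the libraries interleaved. Time alone gave no member call either, with 0 of 8 in PC3 cells (0.0264% of all genes called) and 0 of 7 in HeyA8 cells (0% called, 879 genes at an unadjusted p under 0.05). At that unadjusted level there were 2 members in PC3 cells, beside 13.4% of all genes, and 0 in HeyA8 cells, beside 6.34%. DESeq2 called 0 members in either line, beside 1.45% of all PC3 and 0.44% of all HeyA8 genes. PPARA was 0.65 higher on the log2 scale at 48 h than at 24 h in PC3 cells and PPARD 0.37 lower, with adjusted p of 0.314 and 0.33.

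siGGGGGC in PC3 cells was the comparison on which ANGPTL4 was chosen. ANGPTL4 was at 12.1 and 8.92 CPM after siNT1 and at 70.0 and 170.7 CPM after siGGGGGC at 24 and 48 h, where mock and siCAG libraries stayed between 9.06 and 13.9 CPM. The siGGGGGC libraries thus lay above the other 6 PC3 libraries at both time points, and the 48 h library above the 24 h library. As a description, the fitted log2 fold change was 3.44 (SE 0.42), with 2.52 at 24 h and 4.24 at 48 h.

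Among the receptors, PPARD fell. It was at 126.2 and 112.8 CPM after siNT1 and at 53.9 and 33.7 CPM after siGGGGGC at 24 and 48 h. The siGGGGGC values were the lowest of the 8 PC3 libraries, in which mock and siCAG ranged from 96.8 to 137.2 CPM. Its log2 fold change was -1.48 (SE 0.18, adjusted p = 0.0104), or 2.79-fold lower. PPARA was at 18.9 and 30.1 CPM after siNT1 and at 18.2 and 40.2 CPM after siGGGGGC, so that it differed more between the time points than between the treatments, and its log2 fold change was 0.20 (adjusted p = 0.650). PPARG was at 153.0 and 204.6 CPM after siNT1 and at 169.5 and 152.9 CPM after siGGGGGC, with a log2 fold change of -0.12 (2 standard errors either side, -0.51 to 0.27, adjusted p = 0.695).

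Among the targets, CPT1A rose. It was at 206.0 and 224.3 CPM after siNT1 and at 306.0 and 356.1 CPM after siGGGGGC, above all other PC3 libraries, which reached 224.3 CPM at most. Its log2 fold change was 0.62 (SE 0.14, adjusted p = 0.0385), or 1.54-fold. ACADVL acts after CPT1A in the same route and overlaps DLG4 on the opposite strand, so some of its reads may be shared. It was at 260.1 and 253.8 CPM after siNT1 and at 326.1 and 314.4 CPM after siGGGGGC. The siGGGGGC and siNT1 values did not overlap, but the 24 h mock library, at 317.6 CPM, lay among the siGGGGGC values, and the log2 fold change of 0.32 (SE 0.15, adjusted p = 0.198) was not called. PDK4 was at 10.5 and 8.95 CPM after siNT1 and at 9.66 and 15.2 CPM after siGGGGGC, with a log2 fold change of 0.34 (adjusted p = 0.371). PLIN2 was at 95.9 and 96.8 CPM after siNT1 and at 137.8 and 79.5 CPM after siGGGGGC, above the control at 24 h and below it at 48 h. In all, 1 member besides ANGPTL4 was called higher and 1 lower, beside 3.67% of all 15136 genes called higher and 6.00% lower. The calls of PPARD and CPT1A need both siNT1 libraries. Without the 24 h siNT1 library the adjusted p was 0.0624 for PPARD and 0.253 for CPT1A, and without the 48 h siNT1 library 0.137 and 0.291, with 0 of all genes called in either fit. CPT1A was also not called without the 48 h siGGGGGC library (adjusted p = 0.0882), without a term for time (0.0537), in the 4 libraries of the 2 treatments alone (0.105) or without the siCAG libraries (0.0542).

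**Figure D2:**
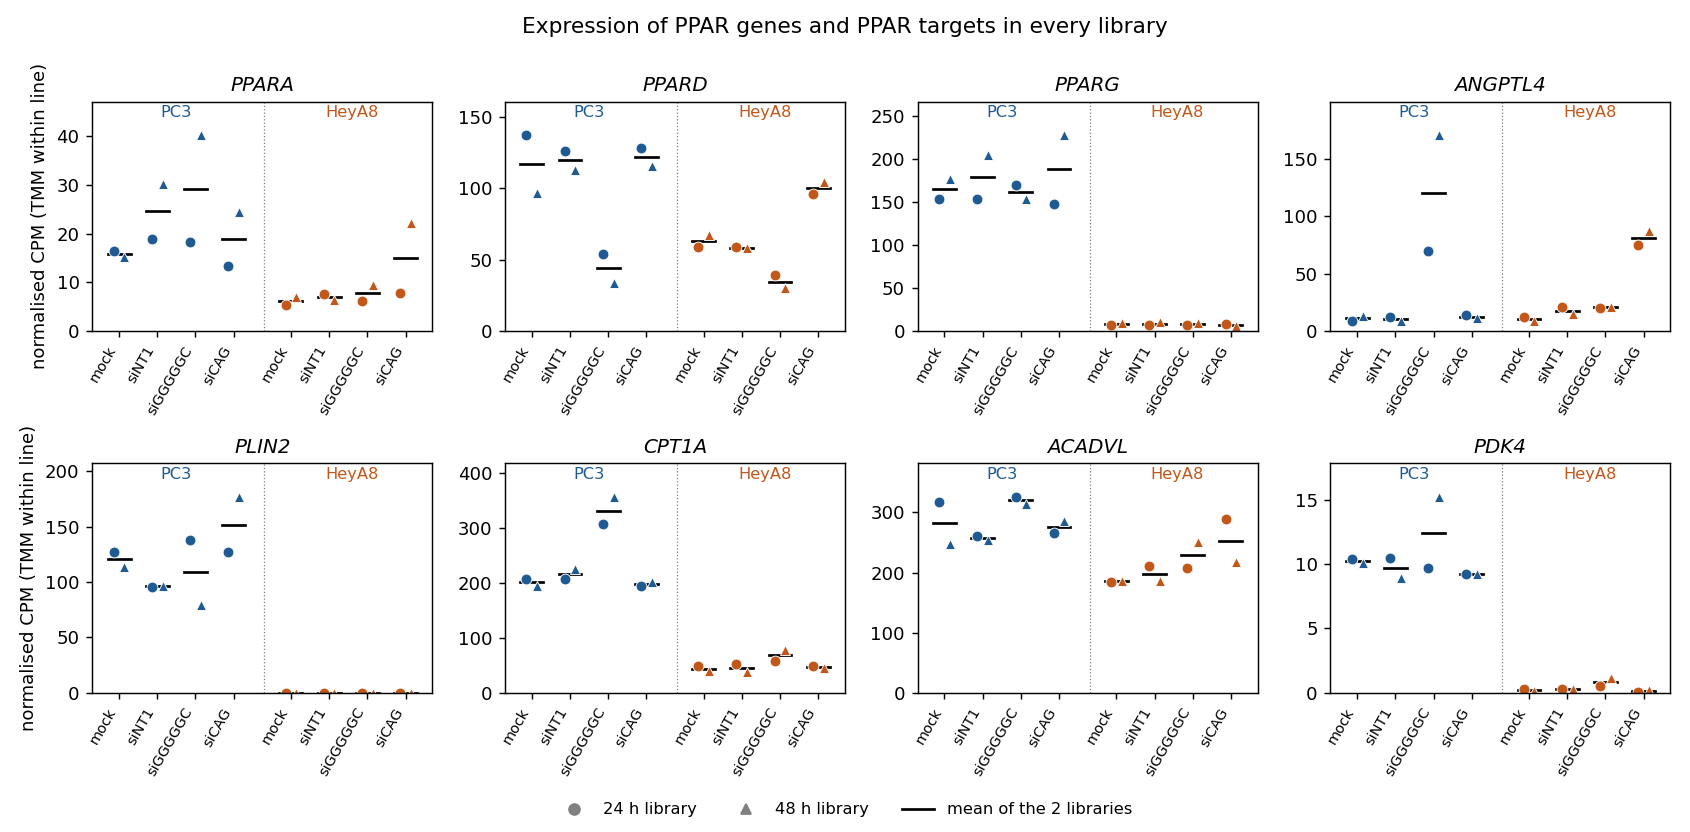
CPM of each member in every library, 8 panels with a linear axis from 0, PC3 in blue and HeyA8 in orange, normalized within each line, with circles for 24 h, triangles for 48 h and a bar at the mean of the 2 libraries. ANGPTL4 stands out after siGGGGGC in PC3 cells (70.0 and 170.7 CPM) and after siCAG in HeyA8 cells (75.2 and 87.2 CPM), and PPARD is lowest after siGGGGGC in both lines.

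The wider pathway lists moved both ways in PC3 cells after siGGGGGC. Of 107 list genes tested, 6 rose and 8 fell, and the median log2 fold change was 0.097 against 0.0029 for all genes tested. The shares called are near the 3.67% higher and 6.00% lower of all genes, so the list counts are given as a description of these genes and not as a result about the pathway. Corepressors and coactivators accounted for most of the decreases, with 5 of 16 receptor partners lower and 0 higher (list median -0.18). NRIP1, a corepressor of nuclear receptors, was at 224.1 and 88.4 CPM after siNT1 and at 39.3 and 30.5 CPM after siGGGGGC (log2 fold change -2.02, adjusted p = 0.0204). CREBBP, an acetyltransferase coactivator, went from 99.9 and 103.8 to 48.3 and 42.9 CPM (log2 fold change -1.16). TBL1XR1, a subunit of a corepressor complex that holds histone deacetylases, had a log2 fold change of -0.87. PPRC1 (-0.77), also among these 5, is named here after its value was seen.

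The carnitine shuttle and the mitochondrial spiral held most of the increases. CPT2, which hands fatty acids back from carnitine to coenzyme A inside mitochondria, went from 23.7 and 24.8 to 42.8 and 65.8 CPM (log2 fold change 1.15, SE 0.21, adjusted p = 0.0235). SLC25A20, the carrier of acylcarnitines across the inner membrane, rose by 0.78 on the log2 scale, and with CPT1A these are the consecutive steps of the shuttle. In the mitochondrial oxidation list 2 of 15 rose and 0 fell (list median 0.29), namely ACAA2, the closing thiolase step (log2 fold change 0.93), and ECHS1, a hydratase (0.57). PDP2, a phosphatase that activates pyruvate dehydrogenase and so opposes PDK4, rose by 0.81. Also lower were ACSL4, an acyl-CoA synthetase that prefers arachidonic acid (-1.98), UCP2, a mitochondrial carrier (-1.03), and PLIN4 (-0.78). ACSL4 belongs to the same list as CPT2 and SLC25A20, that of fatty acid uptake, activation and carnitine shuttle. In that list 2 of 15 were called higher and 1 lower, and the fall of ACSL4 was the largest of these changes. In the lipolysis, peroxisomal and angiopoietin lists 0 of 10, 0 of 13 and 0 of 4 genes were called. As with the members, leaving out either siNT1 library left 0 of these 14 calls. Among identity markers, 2 of 4 prostate genes tested (HOXB13 and TMPRSS2) and 1 of 3 ovarian genes tested (PAX8) were also called lower in these libraries, with log2 fold changes of -1.31, -0.85 and -1.36, while 0 of 5 epithelial markers were called. Of the 5 adipocyte markers 2 had enough reads to be tested (PLIN1 and CIDEC), and 0 were called. Their part in the other changes was not tested.

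**Figure D3:**
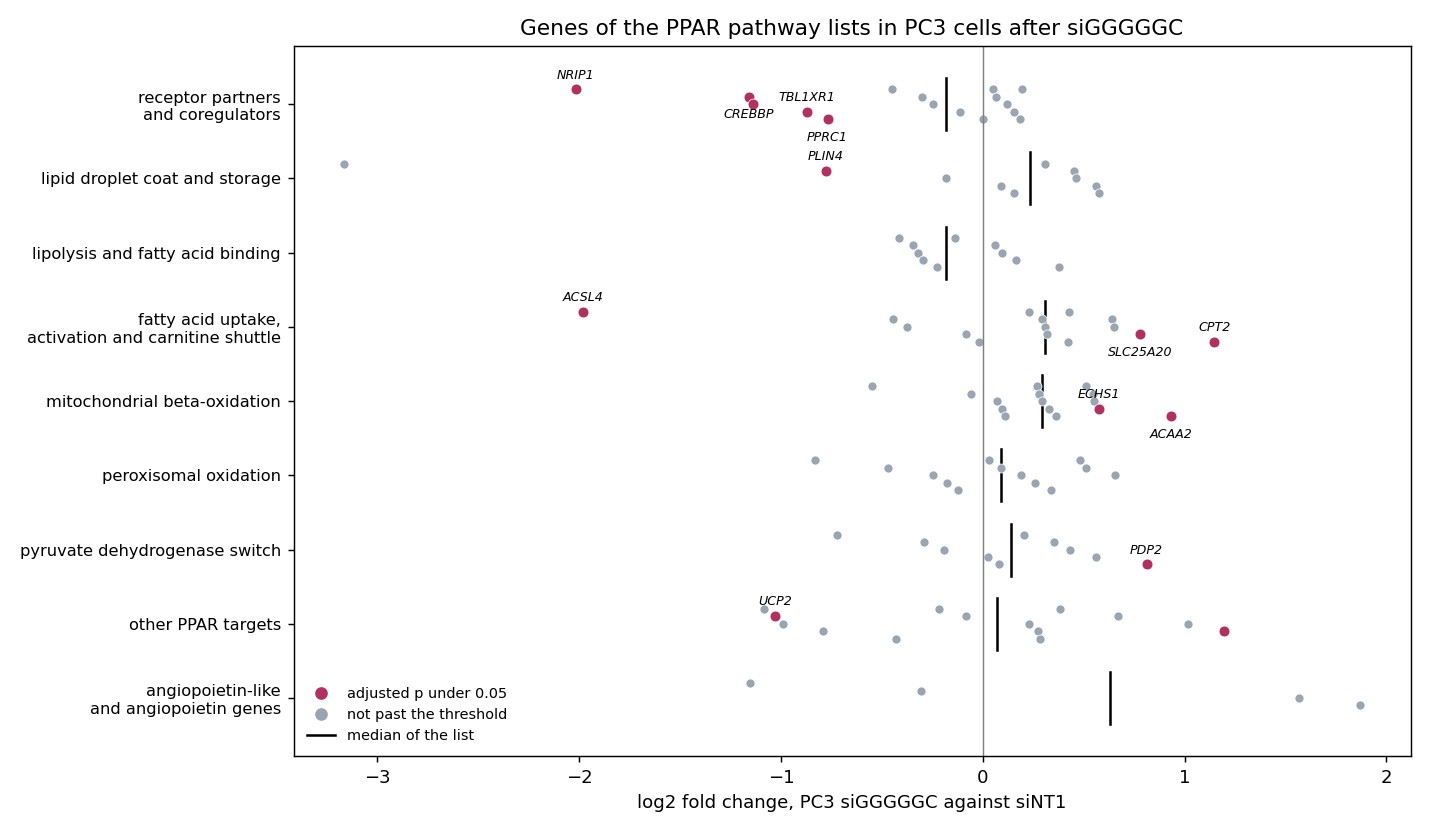
Log2 fold change after siGGGGGC against siNT1 in PC3 cells of the 107 tested list genes, 1 point per gene in rows by list, with called genes in red, most of them named, the others in grey and a bar at each list's median. The called receptor partners all lie left of 0, and the called genes of mitochondrial oxidation lie right of it.

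In HeyA8 cells siGGGGGC gave 0 calls among 7 members and 0% among all 13872 genes tested by edgeR (1352 genes, among them 1 member, had an unadjusted p under 0.05). DESeq2 called 55 genes higher and 263 lower, with 0 members among them. PPARD was at 58.7 and 57.9 CPM after siNT1 and at 39.2 and 29.9 CPM after siGGGGGC. The siGGGGGC libraries were again the lowest of the line, with a log2 fold change of -0.76 (SE 0.23, unadjusted p = 0.0149, adjusted p = 0.392). A fit of the 4 libraries of the 2 treatments alone called this decrease (adjusted p = 0.0131) together with 8.86% of all genes. CPT1A was at 52.5 and 37.5 CPM after siNT1 and at 58.1 and 77.7 CPM after siGGGGGC, a log2 fold change of 0.61 (SE 0.27, adjusted p = 0.521). PDK4 stayed between 9 and 36 reads in these 4 libraries, the siGGGGGC libraries being the higher at 16 and 36 reads. ANGPTL4 was at 20.9 and 14.8 CPM after siNT1 and at 20.0 and 21.1 CPM after siGGGGGC, with a log2 fold change of 0.22 (2 standard errors either side, -0.31 to 0.76, adjusted p = 0.851). In mock it was at 12.5 and 8.88 CPM, and with mock as the control the log2 fold change was 0.96, also not called.

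Whether PC3 and HeyA8 responded differently to siGGGGGC was asked with an interaction term in the fit of 16 libraries, where 0% of 15887 genes and so 0 of the members were called by edgeR (1054 genes, among them PPARD, at an unadjusted p under 0.05). DESeq2 called 7 genes higher and 12 lower. PPARD had a difference of -0.73 on the log2 scale (SE 0.30, unadjusted p = 0.0339, adjusted p = 0.741), a larger decrease in PC3 cells that did not pass. For CPT1A the difference was -0.0049 (SE 0.31), and 2 standard errors either side spanned -0.63 to 0.62. The difference for ANGPTL4 was 3.20 (SE 0.52), given without a test.

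After siCAG the high ANGPTL4 values were those of HeyA8 cells. ANGPTL4 was at 75.2 and 87.2 CPM after siCAG, against 20.9 and 14.8 CPM after siNT1, and the siCAG libraries lay above all others of the line, which reached 21.1 CPM at most. ANGPTL4 rose with a log2 fold change of 2.21 (SE 0.28, adjusted p = 0.0113), or 4.62-fold, with 1.84 at 24 h and 2.55 at 48 h. It was the 1 of 7 members called, beside 2.88% of all genes called higher and 4.93% lower. The call needs both siNT1 libraries, since the adjusted p was 0.0959 without that of 24 h and 0.177 without that of 48 h, and with mock as the control the log2 fold change was 2.95 (adjusted p = 0.0047). PPARD was at 96.1 and 104.4 CPM after siCAG against 58.7 and 57.9 CPM after siNT1, above the other HeyA8 libraries. Its log2 fold change of 0.78 (SE 0.23, adjusted p = 0.0828) was not called, while DESeq2 called it (adjusted p = 0.0307) together with 19.2% of all genes. The fits without the 24 h or the 48 h siCAG library called it too, where they called 31.5% and 32.9% of all genes. PPARA was at 7.73 and 22.1 CPM after siCAG and at 7.54 and 6.42 CPM after siNT1, so that only the 48 h siCAG library stood apart (log2 fold change 0.94, adjusted p = 0.191). The other members had adjusted p of 0.356 or more. Of the 11 marker genes tested in HeyA8 cells 0 were called after siCAG. COL1A1, a fibroblast collagen, had 559 and 1252 reads after siCAG against 304 and 167 after siNT1 (log2 fold change 2.04, adjusted p = 0.0820). WT1, an ovarian marker, had 242 and 182 reads against 506 and 377 (-1.11, adjusted p = 0.0689). HOXB13, a prostate marker, had 71 and 51 reads against 18 and 20 (1.64, adjusted p = 0.121). Each siCAG library also had a lower correlation across genes to its nearest library than the other HeyA8 libraries, which had 0.983 or more. The 24 h siCAG library was nearest to the 24 h siNT1 library (0.961). The 48 h siCAG library was nearest to the 24 h siCAG library (0.955). The siCAG libraries were thus no closer to each other than that of 24 h was to siNT1. The part of these differences in the rise of ANGPTL4 was not tested.

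In PC3 cells siCAG left ANGPTL4 at 13.9 and 10.97 CPM, where mock and siNT1 libraries ranged from 8.92 to 13.1 CPM. Its log2 fold change against siNT1 was 0.24 (SE 0.39), given as a description because ANGPTL4 was chosen against the same siNT1 libraries. The count of members called was 0 of 8 by edgeR, beside 1.20% of all genes, and 0 of 8 by DESeq2, beside 3.78%. An unadjusted p under 0.05 was found for 1 member and 13.5% of all genes. PLIN2 was at 126.8 and 177.0 CPM against 95.9 and 96.8 CPM after siNT1, a log2 fold change of 0.67 (SE 0.27, adjusted p = 0.339) that was not called, though a fit of these 4 libraries alone called it (adjusted p = 0.0045) together with 16% of all genes. PLIN2 was at 127.2 and 113.9 CPM in mock, so that the 24 h siCAG library lay within the mock values and the siNT1 libraries were the lower ones. PPARA had a log2 fold change of -0.40 (adjusted p = 0.573), and the other members lay between -0.12 and 0.10. The interaction for siCAG, a comparison added after the data were seen, called 0.636% of all genes and 0 of 8 members, of which 3 had an unadjusted p under 0.05, as did 14.6% of all genes. These counts of members include ANGPTL4. For ANGPTL4 the difference, PC3 minus HeyA8, was -2.08 (SE 0.51). It is given without a test, because it uses the PC3 siNT1 libraries against which ANGPTL4 was chosen. The comparisons of siGGGGGC and siCAG share the siNT1 libraries of their line, so their values stand side by side here and were not correlated.

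**Figure D4:**
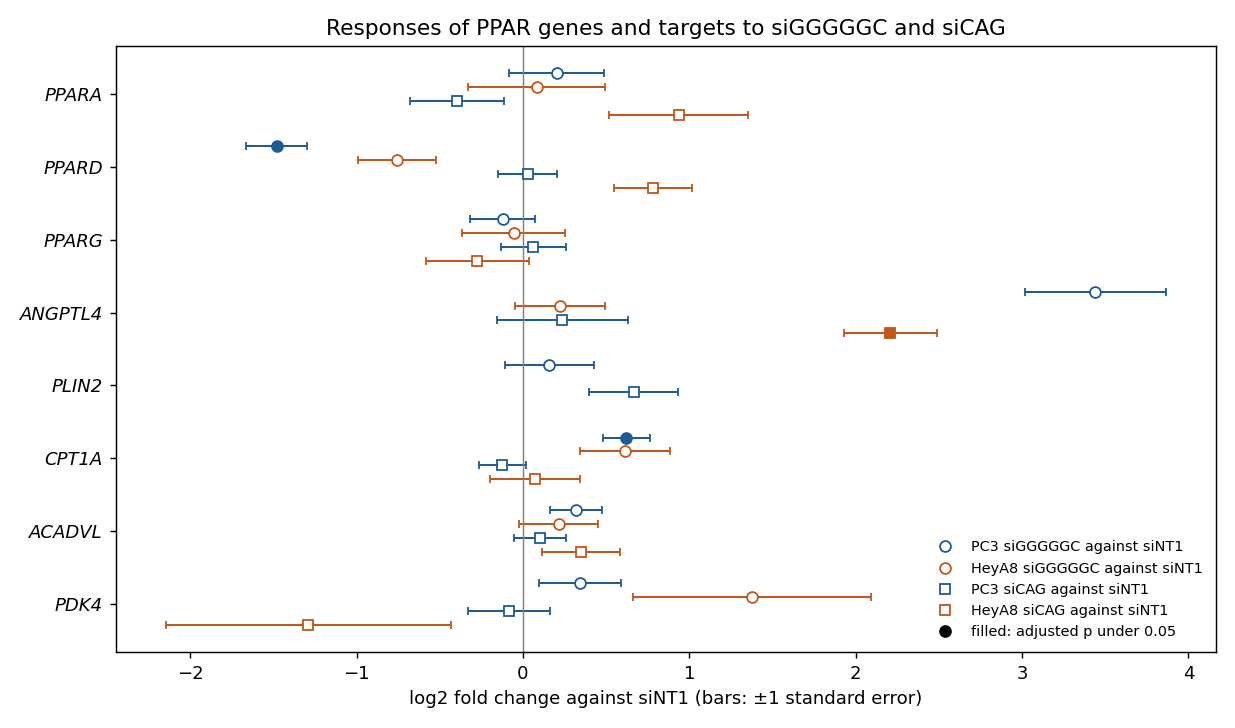
Log2 fold change of each member against siNT1 with bars of 1 standard error, circles for siGGGGGC and squares for siCAG, PC3 in blue and HeyA8 in orange, filled where the adjusted p was under 0.05. ANGPTL4 after siGGGGGC in PC3 cells is drawn hollow because it was chosen on that value, and PLIN2 has no HeyA8 points because it was not tested there.

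In the pathway lists 3 of 98 genes tested rose and 1 fell after siCAG in HeyA8 cells, beside the background of 2.88% and 4.93%. TXNIP, an arrestin-like protein that limits glucose uptake, was at 18.8 and 43.2 CPM after siNT1 and at 151.1 and 231.9 CPM after siCAG (log2 fold change 2.65, SE 0.46, adjusted p = 0.0263). PDK2, a kinase with the same substrate as PDK4, rose by 1.42 and RXRB, a partner of the PPARs, by 0.99 on the log2 scale. DLAT, the acetyltransferase subunit of pyruvate dehydrogenase, fell by 1.01. The median of these lists was 0.34 against -0.011 for all genes tested, and 0 of the 4 calls were left without either siNT1 library. In PC3 cells 1 of 107 list genes was called after siCAG. This was SLC27A3, an acyl-CoA synthetase, which went from 11.9 and 11.6 to 4.60 and 3.99 CPM (log2 fold change -1.45). Of the 5 epithelial markers CDH1 was also called lower against siNT1 (-1.60). It had 250 and 232 reads after siCAG, 288 and 288 in mock and 786 and 612 after siNT1, so that siCAG lay close to mock and the siNT1 libraries stood above both. Its part in other changes was not tested.

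The genes whose level followed ANGPTL4 most closely were looked up in each line, as Pearson's r of log2 CPM over the 8 libraries, which share treatments and controls. In PC3 cells these were SELO (r = 0.99), PIGH, SPRYD7, PSMA7 and CPT2 (r = 0.98) among 11510 genes. CPT2, of the carnitine shuttle, was thus among the 5 nearest, CPT1A ranked 103 (r = 0.95), and PPARD ranked 11443 (r = -0.98), close to the opposite end. PDK4 (0.75), ACADVL (0.61), PPARA (0.48), PPARG (-0.32) and PLIN2 (-0.37) lay between them. In HeyA8 cells the nearest were BTG2 (r = 0.99), JARID2, ARHGEF17, TSPAN9 and PLEKHM1P (r = 0.98) among 10658 genes. Of the members PPARA (r = 0.72) and ACADVL (0.72) were the nearest, followed by PPARD (0.57), CPT1A (0.13) and PPARG (-0.60). PLEKHM1P is a pseudogene, so its counts are uncertain. A correlation over so few treatments is set by the libraries with the highest ANGPTL4, and it is given as a description.

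Promoters were read from RefSeq (GRCh38.p14), 250 bases before to 50 bases after each gene's start, and all 8 members matched. The element that PPAR and RXR pairs bind is a pair of AGGTCA half-sites 1 base apart. With at most 1 mismatch and on both strands it was in 0 of 8 member promoters and in 0.348% of 27305 promoters. A single exact AGGTCA was in 1 member promoter, that of PPARG, and in 13.9% of all. The windows are short and enhancers lie outside them, so these letters say nothing about where the receptors bind.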

How the data were processed

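Per the labels and the study's methods, the authors made paired-end libraries with a TruSeq Total RNA kit, trimmed the reads, aligned them to hg38 with STAR (the methods also name TopHat) and assigned exonic reads to Ensembl genes with HTSeq. The deposited values are whole-number counts, not normalized, for 26485 genes in 16 libraries, with 0 columns of no sample. The strand setting of the counting is not given in the sources used here. DLG4 overlaps ACADVL on the opposite strand, which makes the counts of ACADVL uncertain. Samples with siMxy or siNT_3AB in the title have siGGGGGC or siNT1 as the treatment label. The study's methods give a higher siRNA dose than the labels.

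The counts were tested with edgeR 4.0.16 in R 4.3.3 (filterByExpr, TMM, glmQLFit and glmQLFTest, Benjamini-Hochberg over all genes of a fit). Within a line, treatment and time point were terms over all 8 libraries. The mock comparison of the lines and the interactions used all 16 libraries. Standard errors were computed from the log2 fold change and the F statistic. Single time points are ratios of CPM with 0.1 added. Members, gene lists and tests were chosen with earlier results of these data known. From each list, up to 4 called genes in the siGGGGGC comparison of PC3 cells and 2 elsewhere were named by largest change, with a mean of at least 100 normalized counts. The 5 genes nearest to ANGPTL4 and the markers were named too. Genes on the lists numbered 144, of which 143 were in the table. Exon lengths and 3′ UTRs came from GENCODE v44. The fits were tested on simulated data. Alternatives were RLE size factors, other low-count filters, DESeq2 1.42.0, no time term, fewer libraries, mock as control and each library left out. Some genes and sites that the naming rules cover are not reported here.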

Additional observations from a re-analysis of the deposited data

Results flagged for a closer look

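Against siNT1, the response of PPARA to siCAG lay on opposite sides of 0 in the 2 lines at both time points. Its log2 ratio of siCAG to siNT1 was -0.50 at 24 h and -0.31 at 48 h in PC3 cells, and 0.035 at 24 h and 1.77 at 48 h in HeyA8 cells. The interaction, PC3 minus HeyA8, was -1.44 (edgeR, unadjusted p = 0.0199, adjusted p = 0.246), so the difference did not pass. Without the 24 h siCAG library of HeyA8 cells it passed (adjusted p = 0.0240) together with 9.24% of all genes. The direction in PC3 cells depended on the control, with a log2 difference of -0.40 from siNT1 but 0.16 from mock. Groups of 2 libraries are too small to test single libraries as outliers.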

How the results depend on the processing

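Each treatment had 2 libraries per line, taken at different times, so a left-out library leaves a lone sample that is assumed to vary like the other groups. Of the single-gene values recomputed, 0 changed sign where called, 932 kept their side of the threshold, 18 gained a call, 14 lost one and 105 others, none of them a reversal of a call, moved. At these depths PLIN2 could not be tested in HeyA8 cells. No separate fit with a replicate block was made, since the term for time already pairs the libraries. The cause of the changes below was not tested. The share of all genes that a setting called stands in parentheses.

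For siGGGGGC in PC3 cells the 14 list genes called were 23 with DESeq2 (18.9%), 3 with no term for time (4.13%) and 4 in the 4 libraries of the 2 treatments alone (2.99%), and 0 to 30 with each library left out (0 to 3 for the count of 3 members, which holds ANGPTL4 and is no test of it, beside 0% to 23.5% of all genes). In HeyA8 cells the 0 list genes called were 3 with DESeq2 (2.29%), 12 in the 4 libraries alone (8.86%) and 3 without the siCAG libraries (3.52%), and the 4 libraries alone called 1 member. For siCAG in PC3 cells the 1 list gene called was 5 with DESeq2 (3.78%), 18 in the 4 libraries alone (16%), 2 with mock as control (2.58%) and 0 with any of its libraries left out (0.191% to 0.796%), and the 4 libraries alone called 1 member. In HeyA8 cells the 4 list genes called were 7 with a mean of at least 1 CPM (9.39%), 17 with DESeq2 (19.2%), 1 in the 4 libraries alone (4.31%), 7 with mock as control (8.97%) and 0 to 37 with each library left out (0.291% to 32.9%). The 1 member called there was 2 with DESeq2 and 0 to 3 with each library left out, in the same fits.

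For siNT1 against mock the 0 list genes called in PC3 cells were 1 with no low-count filter (0.396%), 1 with DESeq2 (1.76%) and 2 in the 4 libraries alone (1.73%), which in HeyA8 cells called 10 list genes and 1 member (11.8%). For time, DESeq2 called 1 list gene in PC3 cells (1.45%), and the siNT1 and mock libraries alone called 11 list genes and 3 members in HeyA8 cells (ANGPTL4, CPT1A and PPARG), where it called 12% of all genes. In the siGGGGGC interaction the 1 member past the DESeq2 threshold was ANGPTL4, which was chosen on this response, so that this is no test of it. Its DESeq2 call in the siCAG interaction is no test of it either, since that fit uses the same PC3 siNT1 libraries. In the siCAG interaction DESeq2 called 1 member (ANGPTL4) and 5 list genes (4.22%), and leaving out a library gave 0 to 9 list genes and 0 to 2 members (0.00608% to 9.24%). The 59 list genes that differed between mock-treated lines were 37 to 48 with each mock library left out (26.3% to 34.9%, against 45.5%).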
